A study of Mus musculus with 6 samples.

Results

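Transcripts of 9 genes that encode α-ketoglutarate-dependent oxidases of methylated DNA and RNA were followed in cultured neonatal mouse cardiomyocytes (CMs). The members were the rows of the deposited table named *Tet1*, *Tet2*, *Tet3*, *Fto*, *Alkbh1*, *Alkbh2*, *Alkbh3*, *Alkbh5* and *Alkbh8*, and each matched 1 row, giving 9 of 20066 listed genes. The choice used no measured value. CMs were isolated from P0–1 C57BL/6 pups, for which the labels give no allele beyond the strain, and cultured for 96 h with 100 µM cell-permeable α-ketoglutarate (αKG) or with its solvent dimethylsulfoxide (DMSO). Total RNA was sequenced in 3 libraries per group. The labels do not tie the libraries to isolations. By the study's general methods, a sample of neonatal CMs stands for 1 isolation from hearts of several pups pooled together, so p-values measure the spread between such pools if this held for the sequenced samples. The comparison asks whether adding αKG altered the RNA level of enzymes that use αKG as a co-substrate.

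All of these enzymes share a mechanism. They bind iron, take αKG and oxygen, hydroxylate a methyl group or another carbon attached to a base, and release succinate and carbon dioxide. TET1, TET2 and TET3 oxidize 5-methylcytosine in DNA to 5-hydroxymethylcytosine and further forms, which opens a route to unmethylated cytosine. FTO and ALKBH5 are the known erasers of N6-methyladenosine (m6A), an abundant internal mark of messenger RNA. ALKBH2 and ALKBH3 repair alkylated bases by direct reversal, ALKBH1 acts on transfer RNA and in mitochondria, and ALKBH8 modifies the wobble position of transfer RNA. Their activity depends on αKG and on competing metabolites, which RNA levels do not measure.

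Values are normalized counts, that is, reads per gene that the study had divided by a size factor for each library and rounded, and 3 values in a row are replicates 1 to 3. The libraries held an estimated 3725428 to 4428655 reads in genes. αKG replicate 3 stood apart from its group. Across genes, its log2 values correlated at 0.977 to 0.98 with the DMSO libraries and at 0.962 and 0.963 with αKG replicates 1 and 2. Where the call of a member turned on this library, values are given with and without it. In the fit without this library, 37.2% of all genes passed the test described below. That share applies wherever a gene is said to pass without αKG replicate 3. All 9 cardiomyocyte markers were listed, with a summed value of 74525 to 77286 in DMSO and 79129 to 110659 in αKG. *Ttn*, which encodes titin, made up most of these sums, and none of the 9 passed the test described below (4 at an unadjusted p under 0.05 beside 28.1% of all genes, 0 by limma-voom). Markers of other cells were also listed. The summed value of 9 endothelial markers was 1979 to 2088 in DMSO and 1385 to 1505 in αKG, that of 9 fibroblast markers 5710 to 5954 and 5541 to 11081, that of 8 epicardial markers 447 to 479 and 441 to 1113, and that of 8 smooth muscle and pericyte markers 3245 to 3363 and 3534 to 3943. Of 8 macrophage markers 4 were listed, with a sum of 22 to 35 and 24 to 41, and *Ptprc*, *Adgre1*, *C1qa* and *C1qb* were not listed. Of the endothelial markers 6 of 9 passed as lower, beside 0.952% of all genes, and limma-voom called 4 of 9. The median log2 fold change of the list was -0.85, with *Emcn* at -1.60, *Kdr* at -1.14 and *Pecam1* at -1.10. *Tek* at 0.38, *Vwf* at 0.47 and *Flt1* at 0.27 went the other way and did not pass. Of the smooth muscle and pericyte markers 2 of 8 passed as higher, *Cnn1* at 3.17 and *Cspg4* at 0.66, beside 2.83% of all genes. By limma-voom 0 of 8 were called. *Kcnj8* at -1.25, *Rgs5* at -0.37 and *Abcc9* at -0.28 lay below 0 and did not pass. For fibroblast and epicardial markers, αKG replicate 3 gave the low end of the αKG range. Their sums in αKG replicates 1 to 3 were 11081, 10716 and 5541, and 1112, 1113 and 441. With all libraries 0 of 9 and 0 of 8 passed. Without αKG replicate 3, 7 of 9 and 8 of 8 passed, in a fit where 37.2% of all genes did. In that fit 5 of 9 cardiomyocyte, 8 of 9 endothelial and 5 of 8 smooth muscle and pericyte markers passed. The part of these cells in the values below was not tested. In bulk RNA, fewer cells of a type and less RNA per cell cannot be told apart.

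None of the 9 demethylase transcripts differed between αKG and DMSO at a Benjamini-Hochberg adjusted p under 0.05 (limma on log2(value + 1)), where 3.78% of all listed genes passed. Without adjustment 2 of 9 had a p under 0.05, *Tet3* and *Alkbh5*, which is 22.2% against 28.1% of all genes. For the same 2 genes all αKG values lay below all DMSO values, again 22.2% against 28.3% of all genes whose groups did not overlap in either direction. limma-voom on estimated reads also called 0 of 9. Of the 9 log2 fold changes, 4 were above 0 and 5 below, with a median of -0.04 beside 0.04 over all genes. Their median size, 0.08 on the log2 scale, was smaller than the 0.19 over 8295 genes with a mean value of at least 100. These sets differ in level. The TET genes, *Fto* and *Alkbh5* ranked at percentile 94.2 or higher by mean value, and *Alkbh2* lay below a mean of 100. No set matched for level was compared, so the smaller size cannot be read as a trait of the family.

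For 8 of 9 genes the 95% confidence interval of the fold change lay within 1.5-fold in either direction, with outer bounds of 0.796 and 1.32. *Alkbh2*, with 14 to 24 estimated reads per library, was the exception, at 0.766 to 1.92.

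**Figure D1:**
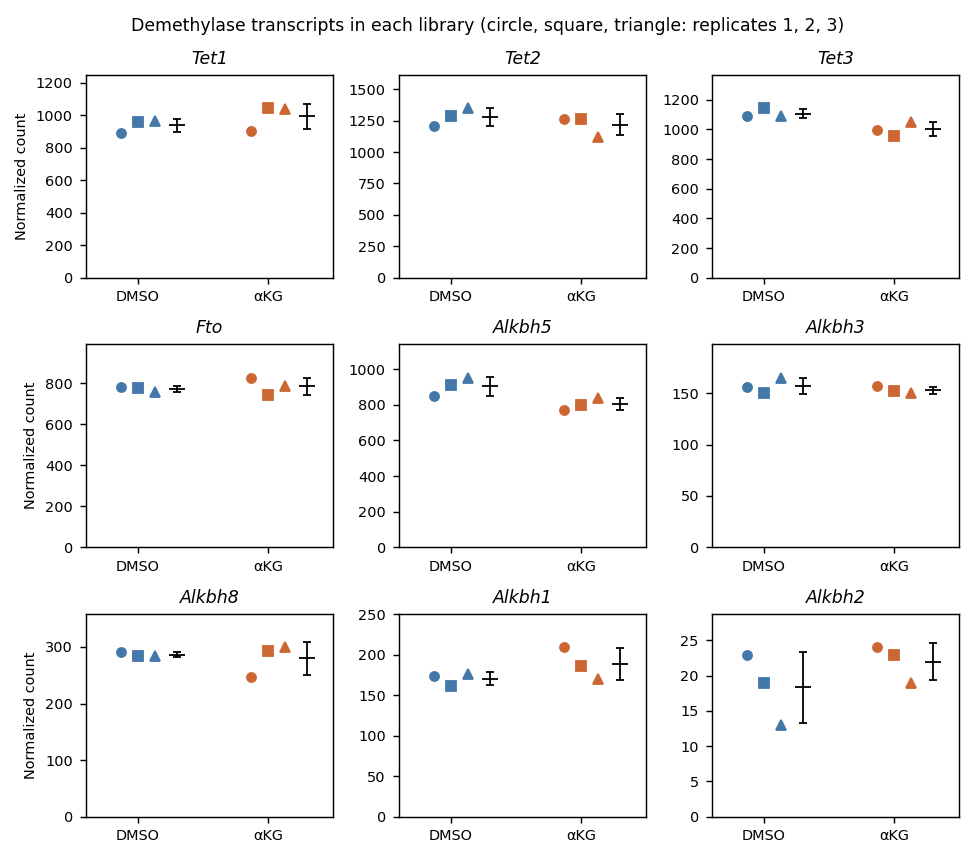
Normalized count (vertical axis, starting at 0, own scale per gene) of each of the 9 demethylase genes in 3 DMSO (blue) and 3 αKG (orange) libraries, with the group mean and SD as a bar beside the points. Only *Tet3* and *Alkbh5* show αKG points that all lie below the DMSO points.

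**Figure D2:**
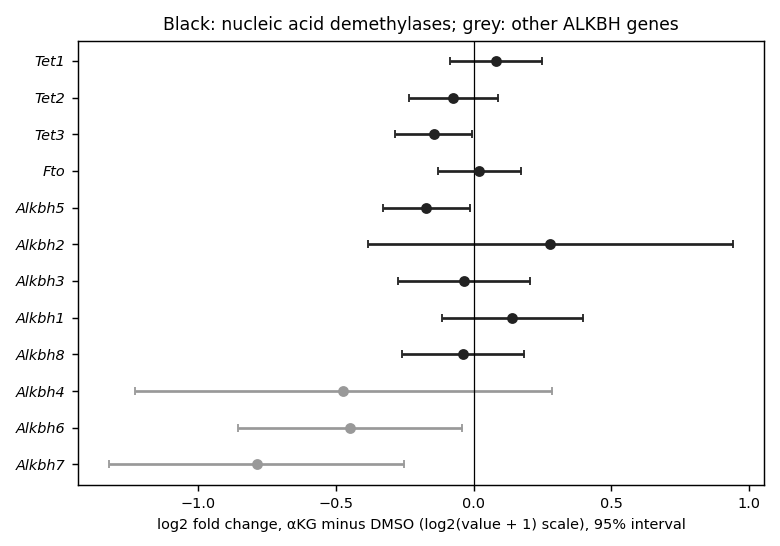
log2 fold change (αKG minus DMSO, on the log2(value + 1) scale) with its 95% confidence interval for the 9 demethylase genes (black) and the 3 other ALKBH genes (grey). The intervals of *Tet3* and *Alkbh5* end just below 0, and that of *Alkbh2*, the gene with the fewest reads, is the widest among the black points.

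The TET genes were the most strongly counted of the family. *Tet2* (ENSMUSG00000040943, GRCm38 chromosome 3, 133463679 to 133545139, minus strand) encodes the TET enzyme that lacks a CXXC DNA-binding domain of its own. *Tet2* stood at 1207, 1285 and 1347 under DMSO and at 1266, 1264 and 1120 under αKG. The groups overlapped, and only αKG replicate 3 lay below the DMSO range. The log2 fold change was -0.07 ± 0.07 (SE), with an adjusted p of 0.523 in limma, and -0.02 without αKG replicate 3 (adjusted p = 0.841 by limma).

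*Tet3* (ENSMUSG00000034832, chromosome 6, 83362373 to 83459084, minus strand), which is known for its role in the early embryo and in differentiated tissues, stood at 1091, 1142 and 1088 under DMSO and at 994, 959 and 1051 under αKG. All αKG values were lower than all DMSO values, and αKG replicate 3 was the closest to them. The mean was 1107 ± 30.3 in DMSO and 1001 ± 46.4 in αKG (SD, n = 3 each). The log2 fold change was -0.15 ± 0.06 (SE), with an adjusted p of 0.166 in limma. Without αKG replicate 3 it was -0.18 and passed the threshold (adjusted p = 0.0177 by limma), in a fit where 37.2% of all genes passed, 19.3% as higher and 17.9% as lower.

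*Tet1* (ENSMUSG00000047146, chromosome 10, 62804570 to 62908996, minus strand), best known from pluripotent cells, stood at 892, 960 and 965 under DMSO and at 905, 1043 and 1037 under αKG. αKG replicate 1 lay inside the DMSO range and the other two αKG libraries above it. The log2 fold change was 0.08 ± 0.08 (SE), with an adjusted p of 0.501 in limma.

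The TET genes have long transcripts, so the values were also read with a correction. After trends with transcript length and GC content were removed from each library, the log2 fold change was -0.25 for *Tet2* (adjusted p = 0.0491 by limma), -0.28 for *Tet3* (adjusted p = 0.0673 by limma) and -0.08 for *Tet1* (adjusted p = 0.555 by limma). *Tet2* was then the single member that passed, where 3.94% of all genes did, 1.25% as lower. With the replicate number as a block beside the correction, its limma adjusted p was 0.0598. The sign of *Tet1* thus depended on the correction, whereas *Tet2* and *Tet3* were below 0 in all 16 fits tried. These fits reuse the same 6 libraries, and *Tet2* ranged from -0.247 to -0.0152 among them. *Alkbh5* and *Alkbh1* did not change sign either.

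Of the m6A erasers, *Alkbh5* lay lower in all αKG libraries, while the *Fto* groups overlapped, and neither passed the test. *Alkbh5* (ENSMUSG00000042650, chromosome 11, 60536381 to 60558512, plus strand), an m6A demethylase of the nucleus, stood at 848, 913 and 951 under DMSO and at 770, 799 and 837 under αKG. The highest αKG value was 837 and the lowest DMSO value 848, so the groups were apart by a small margin. The mean was 904 ± 52.1 in DMSO and 802 ± 33.6 in αKG (SD, n = 3 each). This log2 fold change of -0.17 ± 0.07 (SE) did not pass (adjusted p = 0.15 by limma). Without αKG replicate 3 it was -0.20 and passed (adjusted p = 0.0349 by limma), in the fit where 37.2% of all genes passed.

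*Fto* (ENSMUSG00000055932, chromosome 8, 91313525 to 91668439, plus strand), which also removes methyl groups next to the messenger RNA cap, stood at 784, 778 and 758 under DMSO and at 826, 743 and 785 under αKG. αKG replicates 1 and 2 lay on either side of the narrow DMSO range. The log2 fold change was 0.02 ± 0.07 (SE), with an adjusted p of 0.868 in limma, and the 95% interval of the fold change was 0.913 to 1.13.

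The repair enzymes had the fewest normalized counts. *Alkbh3* (ENSMUSG00000040174, chromosome 2, 93980550 to 94010807, minus strand), which repairs single-stranded DNA and RNA, stood at 156, 150 and 165 under DMSO and at 157, 152 and 150 under αKG. The groups overlapped almost fully (difference -0.04 ± 0.11 on the log2 scale, adjusted p = 0.852 by limma). *Alkbh2* (ENSMUSG00000044339, chromosome 5, 114123926 to 114128218, minus strand), which repairs double-stranded DNA, stood at 23, 19 and 13 under DMSO and at 24, 23 and 19 under αKG. The log2 fold change was 0.28 ± 0.30 (SE), with an adjusted p of 0.562 in limma. Its 95% interval did not exclude an increase of up to 1.92-fold or a decrease to 0.766. Of the 1115 exon bases of *Alkbh2*, 329 overlap exons of *Usp30* on the opposite strand, and reads that matched more than 1 gene had been left out by the study.

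*Alkbh1* (ENSMUSG00000079036, chromosome 12, 87425840 to 87444017, minus strand) stood at 174, 161 and 176 under DMSO and at 209, 186 and 170 under αKG. αKG replicates 1 and 2 were above the DMSO range and replicate 3 inside it (difference 0.14 ± 0.11 on the log2 scale, adjusted p = 0.444 by limma). *Alkbh8* (ENSMUSG00000025899, chromosome 9, 3335140 to 3391154, plus strand) stood at 291, 284 and 284 under DMSO and at 247, 293 and 299 under αKG. Only αKG replicate 1 was below the DMSO values (difference -0.04 ± 0.10 on the log2 scale, adjusted p = 0.825 by limma). For both genes the αKG libraries lay farther apart than the DMSO libraries, which was not tested. By coefficient of variation this held for 6 of the 9 members, and *Alkbh2*, *Alkbh3* and *Alkbh5* went the other way. The coefficient of variation was 10.4% in αKG and 4.78% in DMSO for *Alkbh1*, and 10.2% and 1.41% for *Alkbh8*. Counting error alone gives 7.45% and 5.91%, so the DMSO values lay closer together than counting error alone would on average place them.

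Levels were then set beside each other per kilobase of annotated exon. In DMSO, *Alkbh5* had the highest level, 151 ± 8.7 normalized counts per exon kilobase (SD, n = 3), followed by *Tet2* at 75.9 ± 4.16, *Tet3* at 66.3 ± 1.82, *Tet1* at 60.7 ± 2.64 and *Fto* at 59.3 ± 1.04. *Alkbh3* at 49.7 ± 2.39, *Alkbh8* at 32.8 ± 0.462, *Alkbh1* at 25.9 ± 1.24 and *Alkbh2* at 16.4 ± 4.51 came after them. Among neighbours in this order, only *Tet1* and *Fto* had overlapping DMSO ranges. The order depends on the length used. Per kilobase of coding sequence, *Alkbh5* stayed first at 763 ± 44 and *Alkbh2* last at 25.6 ± 7.02, but *Fto* moved to second at 422 ± 7.43 and *Tet1* to sixth at 152 ± 6.6, with overlapping ranges for *Tet2* and *Tet3* and for *Tet1* and *Alkbh8*.

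Ratios within a library do not depend on a scaling factor per library, and 4 of them were tested with an exact two-sided permutation test, whose smallest possible p is 0.1 with 3 against 3 libraries. *Tet1* made up 29.7%, 30.05% and 30.1% of the summed TET level per exon kilobase in DMSO and 30.3%, 33.8% and 34.2% in αKG. The groups did not overlap, but αKG replicate 1 was close to DMSO (exact p = 0.1, adjusted over the 4 ratios p = 0.2). *Tet3* made up 33.6%, 33.1% and 31.4% in DMSO and 30.8%, 28.7% and 32.0% in αKG, with overlap (exact p = 0.2, adjusted p = 0.267). The share of *Tet2* was 37.4 ± 0.971% in DMSO and 36.7 ± 2.62% in αKG (SD, n = 3 each; exact p = 0.9, adjusted p = 0.9), and without αKG replicate 3 the difference changed sign to 0.804 percentage points. The ratio of *Fto* to *Alkbh5* per exon kilobase was 0.425, 0.392 and 0.366 in DMSO and 0.493, 0.427 and 0.431 in αKG. All αKG ratios were above all DMSO ratios, but the nearest were 0.425 and 0.427. The mean difference was 0.19 on the log2 scale (exact p = 0.1, adjusted p = 0.2). With the GC and length correction, which was added for the ratios after the data were seen, it was 0.06 and the groups overlapped (exact p = 0.7).

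**Figure D3:**
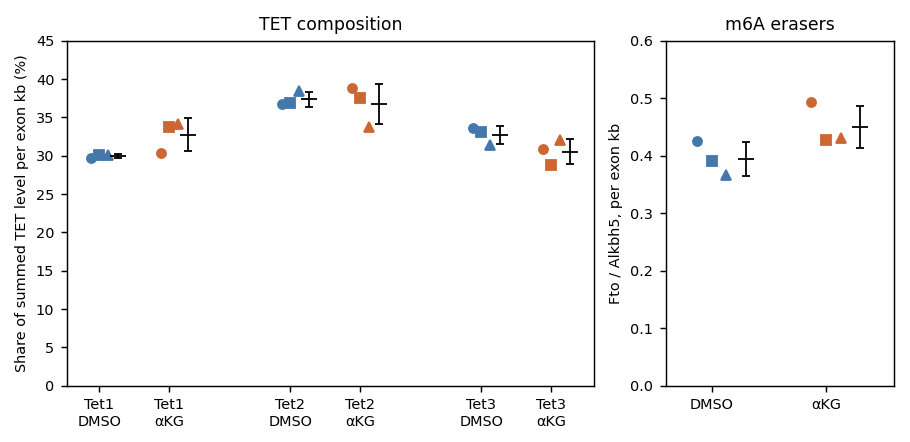
Left, the share of each TET gene in the summed TET level per exon kilobase (percent), and right, the ratio of *Fto* to *Alkbh5*, in 3 DMSO (blue) and 3 αKG (orange) libraries, with the mean and SD as bars (circle, square and triangle are replicates 1 to 3). The *Fto* to *Alkbh5* ratio runs from 0.366 to 0.425 in DMSO and from 0.427 to 0.493 in αKG.

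The 3 ALKBH genes outside the set encode proteins that act mainly on other substrates, and none of them passed in limma (2 at an unadjusted p under 0.05 beside 28.1% of all genes, 0 by limma-voom), although each had a larger negative log2 fold change than any of the 9. *Alkbh7*, which encodes a mitochondrial protein linked to cell death and fat metabolism, stood at 137, 119 and 134 under DMSO and at 53, 70 and 112 under αKG. All αKG libraries were lower, and replicate 3 was close to the DMSO range. Its log2 fold change was -0.79 ± 0.24 (SE), with an adjusted p of 0.084 in limma, and it passed at -1.08 without αKG replicate 3 (adjusted p = 0.00299 by limma). *Alkbh6* was at -0.45 (adjusted p = 0.146 by limma) and likewise passed without that library, at -0.56 (adjusted p = 0.0274 by limma). *Alkbh4* was at -0.47 (adjusted p = 0.376 by limma). *Alkbh4* and *Alkbh6* were named after their values were seen. *Alkbh4* had 11 to 30 normalized counts per library. The difference between these genes and the 9 members was not tested.

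Annotated genes that overlap a member or start within 1000 bases of it on the other strand were read as well, since they share its locus. Of 12 such genes in the table, 0 passed in limma, with 5 at an unadjusted p under 0.05 beside 28.1% of all genes, and 0 by limma-voom. *Fto* is a large gene whose introns hold 4 listed loci on its own strand annotated as TEC, that is, transcripts awaiting experimental confirmation. These loci shared no exon base with *Fto*. *Gm45294* stood at 9, 6 and 7 under DMSO and at 45, 39 and 8 under αKG, *Gm45289* had 4, 7 and 2 and 18, 15 and 7, *Gm45293* had 3, 6 and 9 and 19, 18 and 8, and *Gm45292* had 39, 37 and 28 and 50, 73 and 33. In each case αKG replicates 1 and 2 were above every DMSO library, as they were for 65.5% of all TEC loci in the table, and replicate 3 was within the DMSO range. The same held for *Gm48353* in an intron of *Tet1* (31, 26 and 31 in DMSO; 41, 46 and 26 in αKG) and for *5430434F05Rik* in an intron of *Tet3* (12, 18 and 9; 37, 30 and 15).

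Over these 6 loci, the median log2 fold change was 1.09, beside 0.86 over all 1532 TEC loci in the table. No locus passed (adjusted p from 0.108 to 0.451 by limma), where 4.5% of TEC loci were called higher, and 4 of 6 had an unadjusted p under 0.05 where 40.3% of TEC loci were higher at that level. Without αKG replicate 3 all 6 passed, in a fit where 48.7% of TEC loci were called higher. Their host genes *Fto*, *Tet1* and *Tet3*, counted over exons, had log2 fold changes of 0.02, 0.08 and -0.15 in the same libraries. At counts this low, single reads move the fold change, and intronic reads of the host cannot be told apart from transcripts of the loci themselves.

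**Figure D4:**
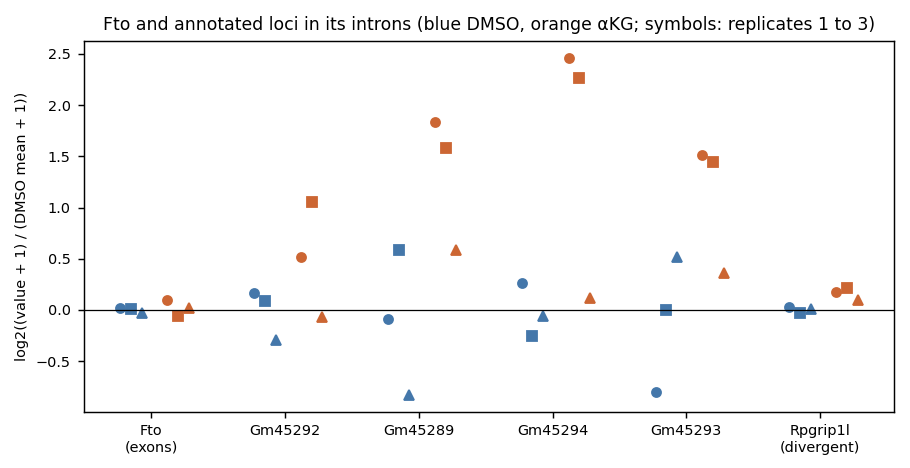
log2 of (value + 1) over (DMSO mean + 1) for *Fto*, for the 4 TEC loci inside its introns and for *Rpgrip1l*, which starts next to *Fto* on the other strand, in DMSO (blue) and αKG (orange) libraries (circle, square and triangle are replicates 1 to 3). The *Fto* points sit near 0 in all libraries, while αKG replicates 1 and 2 lie above the DMSO points for each of the 4 loci.

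Next to the start of 2 members, a coding gene starts on the other strand. *Rpgrip1l*, a ciliary gene whose start lies 263 bases from that of *Fto*, stood at 314, 301 and 310 under DMSO and at 349, 358 and 329 under αKG. All αKG values were higher (difference 0.16 ± 0.08 on the log2 scale, adjusted p = 0.227 by limma). *Rpgrip1l* passed without αKG replicate 3, at 0.20 (adjusted p = 0.0309 by limma), while with the GC and length correction its log2 fold change was -0.01. *Slirp*, which stabilizes mitochondrial messenger RNA, overlaps *Alkbh1* by 122 exon bases and was at -0.09 ± 0.16 (adjusted p = 0.741 by limma). *Usp30*, the deubiquitinase that overlaps the end of *Alkbh2*, stood at 199, 201 and 208 under DMSO and at 153, 156 and 178 under αKG (difference -0.32 ± 0.11 on the log2 scale, adjusted p = 0.0997 by limma). It was lower in every αKG library, and passed without αKG replicate 3 at -0.39 (adjusted p = 0.00674 by limma).

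The partners of these enzymes were described from 10 lists with 99 listed genes in all, of which 5 were higher and 1 lower in αKG at the adjusted threshold. That is 5.05% and 1.01%, beside 2.83% and 0.952% of all genes. The median log2 fold change of the 99 genes was -0.01. All 6 calls were lost when αKG replicate 1 or 2 or DMSO replicate 2 or 3 was left out, where 0 of the 99 passed. Without αKG replicate 3, 43 of the 99 passed, in a fit where 37.2% of all genes did.

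Among genes for m6A writing, 0 of 12 passed in limma (2 at an unadjusted p under 0.05 beside 28.1% of all genes, 0 by limma-voom), and the median log2 fold change was -0.12. *Zc3h13*, a scaffold of the writer complex and the most abundant of them, was at -0.03 (adjusted p = 0.793 by limma). The catalytic subunit *Mettl3*, named after its values were seen, stood at 152, 158 and 162 under DMSO and at 154, 161 and 145 under αKG, a log2 fold change of -0.04 (adjusted p = 0.847 by limma). Its partner *Mettl14*, named in the same way, stood at 325, 305 and 295 under DMSO and at 239, 218 and 328 under αKG. Here αKG replicates 1 and 2 were low and replicate 3 was above all DMSO libraries, so that the log2 fold change was -0.26 (adjusted p = 0.264 by limma) with this library and -0.43 without it (adjusted p = 0.00643 by limma).

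Among m6A readers, 0 of 11 passed in limma (6 at an unadjusted p under 0.05 beside 28.1% of all genes, 0 by limma-voom), with a median of 0.07. *Ythdf2*, which targets m6A-marked messages for decay and was named after its values were seen, stood at 493, 460 and 458 under DMSO and at 322, 323 and 414 under αKG. It was lower in every αKG library. Its log2 difference was -0.42 ± 0.11 (SE), with an adjusted p of 0.0592 in limma. *Hnrnpa2b1*, the most abundant gene of the list, was higher in every αKG library, at 0.21 ± 0.07 (SE), with an adjusted p of 0.11 in limma. Both passed without αKG replicate 3, at -0.54 and 0.27 (adjusted p = 0.00136 and 0.00623 by limma).

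On the DNA side, 0 of 5 listed methyltransferase and recruiter genes passed in limma (2 at an unadjusted p under 0.05 beside 28.1% of all genes, 0 by limma-voom), and *Dnmt3l* was not listed. *Dnmt3a*, a de novo methyltransferase and the most abundant of the list, stood at 1788, 1853 and 1796 under DMSO and at 1786, 1702 and 1837 under αKG. These groups overlapped, at -0.03 ± 0.05 (SE) on the log2 scale, with an adjusted p of 0.74 in limma. The maintenance genes *Dnmt1* and *Uhrf1*, named after their values were seen, were highest in αKG replicate 3. *Dnmt1* stood at 706, 645 and 541 under DMSO and at 771, 694 and 1086 under αKG (0.41 on the log2 scale, adjusted p = 0.131 by limma), and *Uhrf1* had 338, 251 and 190 and 310, 260 and 593 (0.52, limma adjusted p = 0.263). Without αKG replicate 3 the log2 fold changes were 0.22 and 0.17. The replication helicase genes *Mcm2*, *Mcm3* and *Mcm5*, likewise named after their values were seen, were also highest in αKG replicate 3, with *Mcm5* at 364, 271 and 200 under DMSO and at 261, 253 and 536 under αKG. The part of DNA replication in the *Dnmt1* and *Uhrf1* values was not tested.

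Of 8 readers of methylated DNA, 1 fell and 1 rose, where 0.952% of all genes passed as lower and 2.83% as higher. *Zbtb33*, which encodes the methyl-CpG binding repressor Kaiso, fell from a mean of 349 ± 17 to 224 ± 29.8 (SD, n = 3 each). This was -0.65 ± 0.11 (SE) on the log2 scale, with an adjusted p of 0.026 in limma. Its relative *Zbtb38* rose, its mean going from 963 ± 36.2 to 1178 ± 54.3 (SD, n = 3 each), or by 0.29 ± 0.06 (SE) on the log2 scale, with an adjusted p of 0.0445 in limma. The other 6 genes, *Mbd1* to *Mbd4* among them, did not pass. Both calls were lost without any single library other than αKG replicate 3, and with the replicate block (adjusted p = 0.0884 and 0.104 by limma). Neither gene passed without the variance trend (adjusted p = 0.131 and 0.203 by limma). *Zbtb38* also did not pass with a pseudocount of 0.1 (adjusted p = 0.0554 by limma). Its call was likewise lost by limma-voom (adjusted p = 0.0544) and with the GC and length correction, where its log2 fold change was 0.18 (adjusted p = 0.0849 by limma). limma-voom thus called 1 of the 8.

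Of 11 genes that act on the products of TET enzymes or bind TET proteins, 1 rose, where 2.83% of all genes passed as higher. *Neil3*, a DNA glycosylase of dividing cells, stood at 123, 72 and 42 under DMSO and at 261, 205 and 192 under αKG. All αKG values were higher, with a log2 fold change of 1.58 ± 0.32 (SE), where limma gave an adjusted p of 0.0363, or 0.0568 with the replicate block. The call was lost when αKG replicate 1 or 2 or DMSO replicate 2 or 3 was left out. It was also lost with a pseudocount of 0.1 (adjusted p = 0.0528 by limma) and without the variance trend (adjusted p = 0.168 by limma). The cell cycle markers *Top2a* (1.02 on the log2 scale, adjusted p = 0.0289 by limma) and *Mki67* (0.78, limma adjusted p = 0.034) rose as well, as 2 of 15 in their list beside 2.83% of all genes. These 2 markers lost their calls without the same 4 libraries and with the replicate block (limma adjusted p = 0.0738 and 0.076). *Tdg*, the glycosylase that excises the further oxidized bases and was named after its values were seen, stood at 169, 180 and 168 under DMSO and at 142, 144 and 174 under αKG, a log2 fold change of -0.17 (adjusted p = 0.36 by limma). Without αKG replicate 3 it passed at -0.27 (adjusted p = 0.0327 by limma).

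Of 10 genes of alkylation and base excision repair, 1 rose, where 2.83% of all genes passed as higher. *Ascc3*, a helicase that unwinds DNA for ALKBH3, stood at 455, 456 and 444 under DMSO and at 651, 693 and 532 under αKG. Every αKG library was higher, and the log2 fold change was 0.46 ± 0.10 (SE), where limma gave an adjusted p of 0.043, or 0.0909 with the replicate block. With the GC and length correction it was 0.27 (adjusted p = 0.0663 by limma). By limma-voom it was 0.45 and did not pass (adjusted p = 0.0612), which left 0 of 10 called. The call was also lost without any single library other than αKG replicate 3. A pseudocount of 0.1 (adjusted p = 0.0565 by limma) and a fit without the variance trend (adjusted p = 0.186 by limma) lost it too. *Alkbh3* itself had a log2 fold change of -0.04.

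Among 15 genes of transfer RNA modification, 0 passed in limma (2 at an unadjusted p under 0.05 beside 28.1% of all genes, 0 by limma-voom), with a median log2 fold change of -0.17. *Trmt112*, the small partner of the ALKBH8 methyltransferase domain, named after its values were seen, stood at 62, 74 and 67 under DMSO and at 45, 63 and 59 under αKG, a log2 fold change of -0.29 (adjusted p = 0.333 by limma). A further list of 9 genes held enzymes that make or remove metabolites competing with αKG. It also held *Idh1* and *Idh2*, whose enzymes, by the study's account, form αKG itself from isocitrate. Of these 9 genes 0 passed in limma (2 at an unadjusted p under 0.05 beside 28.1% of all genes, 0 by limma-voom). For 5 of them all αKG values lay below all DMSO values, 55.6% of the list beside 14.6% of all genes. *Sdha*, the catalytic subunit of succinate dehydrogenase, stood at 1298, 1291 and 1355 under DMSO and at 1141, 1192 and 1282 under αKG (difference -0.13 ± 0.06 on the log2 scale, adjusted p = 0.222 by limma). Without αKG replicate 3 it passed at -0.17 (adjusted p = 0.0197 by limma). The other 4 were *Sdhb*, *Sdhc*, *Sdhd* and *Idh1*, named after their values were seen, with log2 fold changes of -0.18, -0.31, -0.37 and -0.09. *Sdhb*, *Sdhc* and *Sdhd* encode subunits of the same enzyme as *Sdha*, whereas *Idh1* encodes another, so the 5 genes do not stand for 5 separate enzymes.

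**Figure D5:**
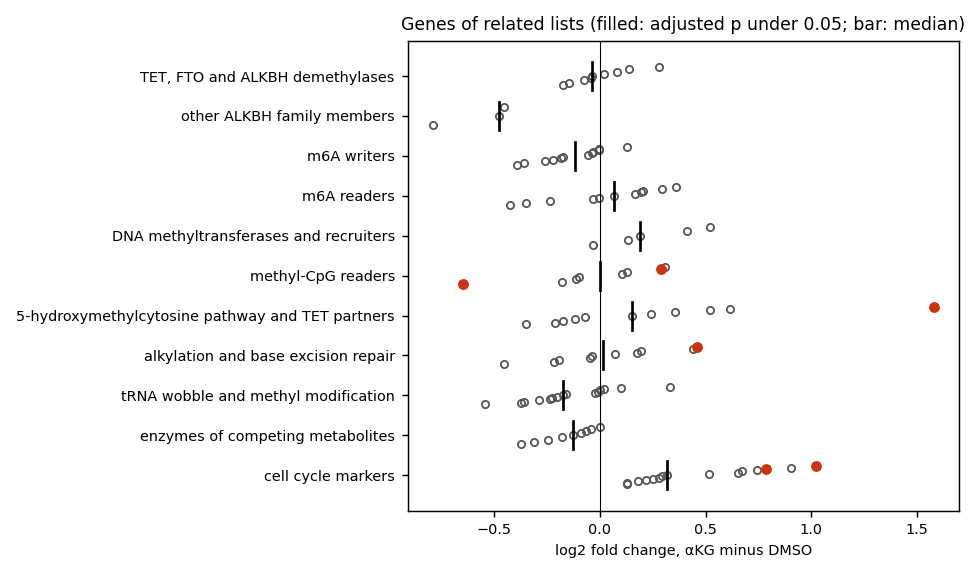
log2 fold change (αKG minus DMSO, horizontal axis) of each gene in the 9-gene demethylase set and in the 10 related lists, with the median of each as a bar and genes at a limma adjusted p under 0.05 filled. The demethylases lie close to 0 with no filled point, and filled points are found for readers of methylated DNA, TET partners, repair and the cell cycle.

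Finally, the genes whose log2 values followed a member most closely over the 6 libraries were looked up among 8294 genes with a mean of at least 100, for the most abundant member of each role. *Tet2* was followed by *Scyl3* (Pearson r = 0.986), *Rcn2* (0.979) and *Phlda3* (0.976), and *Alkbh5* by *Micu2* (0.998), *Edf1* (0.997) and *Dhx8* (0.996). *Alkbh3* was followed by *Tapbp* (0.992), *Tnip1* (0.93) and *Unc45a* (0.92), and *Alkbh8* by *Dtnbp1* (0.988), *Slc25a17* (0.984) and *Eef1b2* (0.973). These are the highest of 8294 values from 6 points that share their libraries and scaling, and they are given as a description. For *Micu2* the normalized counts were 565, 603 and 636 in DMSO and 517, 535 and 561 in αKG, the same order of libraries as for *Alkbh5*.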

How the data were processed

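Total RNA libraries of 3 DMSO and 3 αKG samples were made with a stranded kit. Per the methods and the submitters' processing notes, the authors used FastQC 0.11.8, Trimmomatic 0.39, STAR 2.7.10a on mm10 (GRCm38.p5), featureCounts 2.0.3 and DESeq2 1.30.1. Reads of several genes or places were left out by the authors, and counting by strand was not stated. The deposited values are a score: normalized counts that the authors had scaled between libraries by size factors and then rounded, so no raw counts. The concentration is that of the labels, and the methods name another. Genes below 2 in all libraries are not listed.

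All 20066 genes entered 1 limma fit (limma 3.58.1, R 4.3.3, variance trend, treatment as the only term, pseudocount 1, no filter) with Benjamini-Hochberg adjustment. Fold changes are on the log2(value + 1) scale, which understates low genes. Ratios were tested by exact permutation (scipy 1.17.1). The value of 1 read, 0.926 to 1.12, was estimated from the spacing of low values, and gave the estimated reads. Coefficients of variation from counting cover counting error only, because amplified reads that carry no molecular identifier may stem from 1 molecule. Fit and estimate were tested on simulated data. At a dispersion of 0.002, the fit called 142 of 200 changed genes with the right sign and made 0 false calls. The value of 1 read was within 0.1% in 19 of 20 simulations. No conclusion about a library that stands apart, as αKG replicate 3 did, is drawn from this. Exon length and GC came from GENCODE M21, whose positions were identical for 99% of genes. Earlier results of these data were known throughout, but the members were fixed by a rule that used no measured value. The lists and the rules for naming genes (all members, called list genes or else the most abundant, and the 3 most alike) were chosen with those results known. 1 list gene that these rules name is not reported here. Genes of further interest were added after their values were seen. Alternatives were the pseudocount, a filter at a mean of 10, scaling, variance model, limma-voom, replicate block, GC and length correction, thresholds, and libraries left out or averaged.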

Additional observations from a re-analysis of the deposited data

How the results depend on the processing

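The count of all genes called, 759, was 346 with a pseudocount of 0.1, 27 without the variance trend, 362 with limma-voom, 46 with the replicate block, 10 with DMSO replicates 2 and 3 averaged, 5648 without adjustment, 309 at 2-fold or more, and 0 to 7466 with 1 library left out. Of the 9 demethylases 0 were called, against 1 with the GC and length correction, 2 without adjustment and 0 to 2 with 1 library left out (2 without αKG replicate 3), and 0 in each other alternative, the replicate block included. Of the partner genes 6 were called, against 3 with a pseudocount of 0.1, 0 without the trend, 0 with the replicate block, 0 with DMSO replicates 2 and 3 averaged, 29 without adjustment, 2 at 2-fold or more, and 0 to 43 with 1 library left out. Deviations of same-numbered libraries from their group means correlated at -0.0744, 0.136 and 0.00192, so no pairing by replicate number was seen. This cannot exclude pairing, because αKG replicate 3 stood apart and weighs on the deviations of its whole group. Signs turned only for uncalled values. Correcting for GC and length, with or without the replicate block, gave *Tet1* -0.0839, *Fto* -0.0927, *Alkbh3* 0.0507 and *Rpgrip1l* -0.00636. Quantile normalization gave *Alkbh2* -0.10 and *Alkbh8* 0.00759, and equal totals gave *Fto* -0.0047. Leaving out 1 library gave ranges of -0.0179 to 0.0584 for *Fto*, -0.0683 to 1.17e-05 for *Alkbh3*, -0.0896 to 0.0478 for *Alkbh8*, -0.154 to 8.76e-05 for *Slirp*, -0.0921 to 0.0151 for *Zc3h13*, -0.0734 to 0.00165 for *Mettl3*, and -1.72 to 0.804 percentage points for the *Tet2* share. The causes were not tested. *Alkbh2*, at 14 to 24 estimated reads per library, is limited by depth, with a coefficient of variation of 22.2% from counting alone.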
